A study of Homo sapiens with 12 samples.

Results

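The 8 genes described here are the Sprouty genes SPRY1, SPRY2 and SPRY4, the related SPRED1 and SPRED2, and the ETS transcription factor genes ETV1, ETV4 and ETV5. They were chosen by symbol from a deposited table of raw counts with 27046 genes, and all 8 were found in it. The RNA is from the human cell line BT549, derived from a triple-negative breast tumour, sequenced in 12 libraries, 3 for each combination of an siRNA and a treatment. The groups were knockdown cells with olaparib, knockdown cells with DMSO, control cells with olaparib and control cells with DMSO. Knockdown cells had received siRNA pools against FOSL1, which encodes the AP-1 subunit FRA-1, and against JUN, its dimer partner, while control cells had received a non-targeting pool. All 12 libraries thus come from siRNA-transfected cells of 1 line. Olaparib, an inhibitor of the DNA repair enzymes PARP1 and PARP2, and its solvent DMSO were each given for 48 h, at a dose not given in the sources used here. Nothing states that replicates were separate cultures, so p-values measure the spread between these libraries, which may be technical.

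Growth factor receptors activate RAS, which drives the kinases RAF, MEK and ERK, and ERK switches on genes that restrain the same cascade. Sprouty proteins are such feedback inhibitors, first described downstream of fibroblast growth factor receptors. SPRED proteins bring the RAS inactivator neurofibromin to the membrane. ETV1, ETV4 and ETV5 form the PEA3 group of ETS factors, are transcribed in response to ERK signalling, and are repressed by the protein CIC when ERK is inactive. JUN and FRA-1 are themselves supplied and modified downstream of MAP kinases, so the design asks what happens to this set of ERK-responsive genes when AP-1 is lowered, when PARP is inhibited, and when both are done.

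Promoter windows are shown for 4 of the genes because they differ in the letters of sites for AP-1, the factor that the siRNAs lower, and for ETS factors. The RefSeq table (GRCh38.p14) held 15 windows for 6 of the 8 genes, each running from 250 bases before an annotated start to 50 after it. ETV4 and ETV5 had no window there. Capitals mark TGANTCA, the AP-1 letters, and CCGGAA, letters of an ETS site, each searched on both strands, and no capitals were shared between the motifs in the windows printed. SPRY4 had 1 window, on the minus strand at chr5:142324198-142324497. Of SPRY2, 1 of 3 windows is printed, on the minus strand at chr13:80341077-80341376. Of SPRY1 it is 1 of 2, on the plus strand at chr4:123398136-123398435, and of SPRED2 1 of 2, on the minus strand at chr2:65366729-65367028. For SPRY2, SPRY1 and SPRED2 the window printed is the one that held a motif, and their other windows held neither.
SPRY4: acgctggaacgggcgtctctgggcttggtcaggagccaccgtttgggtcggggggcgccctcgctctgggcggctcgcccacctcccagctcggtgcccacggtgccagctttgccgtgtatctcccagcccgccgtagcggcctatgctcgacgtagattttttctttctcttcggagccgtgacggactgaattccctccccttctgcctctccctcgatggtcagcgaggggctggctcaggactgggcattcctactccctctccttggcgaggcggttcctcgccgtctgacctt
SPRY2: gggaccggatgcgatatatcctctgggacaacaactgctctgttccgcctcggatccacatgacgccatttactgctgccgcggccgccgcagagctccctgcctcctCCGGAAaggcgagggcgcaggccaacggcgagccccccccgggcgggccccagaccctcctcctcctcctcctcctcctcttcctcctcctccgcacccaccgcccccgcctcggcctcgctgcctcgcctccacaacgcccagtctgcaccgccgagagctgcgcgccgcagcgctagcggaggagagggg
SPRY1: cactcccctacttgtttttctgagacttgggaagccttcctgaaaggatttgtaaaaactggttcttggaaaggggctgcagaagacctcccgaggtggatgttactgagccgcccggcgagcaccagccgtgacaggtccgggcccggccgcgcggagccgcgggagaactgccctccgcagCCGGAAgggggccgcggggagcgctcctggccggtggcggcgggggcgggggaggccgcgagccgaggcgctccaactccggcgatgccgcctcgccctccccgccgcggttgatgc
SPRED2: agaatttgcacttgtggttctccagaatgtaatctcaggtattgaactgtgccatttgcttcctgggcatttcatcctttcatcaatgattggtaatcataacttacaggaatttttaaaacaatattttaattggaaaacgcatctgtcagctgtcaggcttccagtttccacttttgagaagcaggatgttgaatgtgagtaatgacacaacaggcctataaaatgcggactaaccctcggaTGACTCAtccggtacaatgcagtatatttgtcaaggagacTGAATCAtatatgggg

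The AP-1 letters, with any base allowed at N, were found in 1 of the 15 windows, the printed one of SPRED2. There they read TGACTCA 6 bases before the start and TGAATCA 35 bases after it. The other SPRED2 window, at chr2:65432550-65432849, held none. Among all 35116 promoter windows of the table, 7.71% held them. CCGGAA was found in 5 of the 15 windows, against 17.2% of all windows. Of these 5, 3 belong to ETV1, of which 2 overlap and hold the same site, and 1 each to SPRY1 and SPRY2. It lay 142 bases before the start in the printed SPRY2 window and 67 bases before it in that of SPRY1. The CIC letters TGAATGAA were in none of the 15 windows and in 1.65% of all, and TGAATGGA was in 1 window of ETV1 and in 1.03% of all. A match in these letters describes the sequence alone and shows no binding.

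Library totals ran from 13763179 to 39715900 counts. A gene was tested where at least 3 libraries exceeded 1 CPM, its count scaled to library size, and 12118 genes passed. Among the 8 genes, 7 exceeded that level in all 12 libraries. ETV1 exceeded it in 3 libraries, 2 of knockdown cells with olaparib and 1 of control cells with olaparib, so it entered the test through its olaparib libraries. FOSL1 in knockdown cells was at 0.169 of its level in control cells with olaparib and at 0.372 with DMSO, and JUN at 0.258 and 0.384. With olaparib, FOSL1 was at 1.76 times its DMSO level in control cells and at 0.799 in knockdown cells, and JUN at 0.998 and 0.671. The knockdown ratios thus also hold the olaparib response of both genes, and its part in the results below was not tested. All 8 mesenchymal markers of the line were tested, and their summed level was 5960 to 6190 CPM in knockdown cells with olaparib, 5310 to 5510 in knockdown cells with DMSO, 8020 to 8150 in control cells with olaparib and 5990 to 6130 in control cells with DMSO. Among 10 epithelial and luminal markers PGR was at 0 in every library and EPCAM, ESR1 and FOXA1 had at most 4 counts, while ERBB2 stood at 96.6 CPM or above. GATA3 had 22.2 to 38.2 CPM, KRT18 16.8 to 35.7 CPM and KRT8 1.18 to 2.09 CPM. CDH1 had at most 1.48 CPM and ELF3 at most 0.419 CPM. Summed epithelial levels were 176 to 197, 191 to 197, 152 to 157 and 145 to 158 CPM in the same order of groups. The 8 haematopoietic markers summed to between 1.09 and 2.82 CPM, with HBB at 0. The 6 endothelial markers summed to 1.98 to 2.83, 4.26 to 5.1, 0.268 to 0.45 and 0.408 to 1.25 CPM in that order, with VWF, CDH5 and KDR at 0, and TEK supplied nearly all of it. The part of these markers in the results below was not tested. In bulk RNA a change in every cell and a change in a share of the cells cannot be told apart.

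In control cells with DMSO, the 8 genes differed widely in level. Compared per length of transcript, as CPM per kilobase (RPKM), ETV5 was highest at 22.2 ± 0.729 RPKM, followed by SPRY2 at 19.9 ± 0.956 RPKM (SD, n = 3 here and below). SPRED2 stood at 9.64 ± 0.318, SPRY4 at 5.77 ± 0.344, ETV4 at 4.74 ± 0.397, SPRY1 at 4.29 ± 0.291 and SPRED1 at 2.38 ± 0.124 RPKM. ETV1 was lowest at 0.0405 ± 0.00547 RPKM. Every neighbour in this order was separated without overlap of the 3 libraries, except ETV4 and SPRY1, whose libraries overlapped.

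The order changed with the groups. In knockdown cells with olaparib SPRY2 led with 51.9 ± 1.06 RPKM, ahead of ETV5 with 42.2 ± 1.36 RPKM. SPRY2 also led in knockdown cells with DMSO, at 31.03 ± 0.595 RPKM, against 28.8 ± 0.243 RPKM for ETV5. In control cells with olaparib ETV5 led with 41.6 ± 0.676 RPKM, against 36.5 ± 0.321 RPKM for SPRY2. SPRY4 stood above SPRED2 in both olaparib groups and below it in both DMSO groups. SPRED1 and ETV1 were the lowest members in every group.

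**Figure D1:**
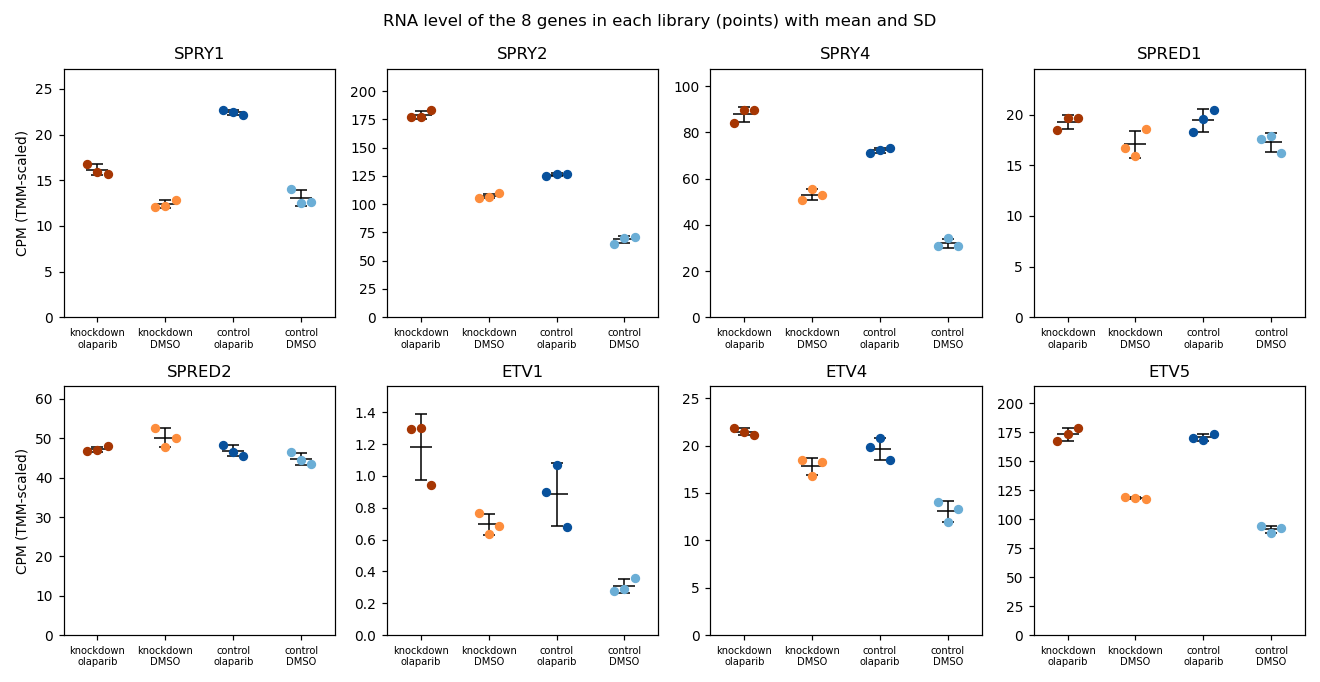
The level of each of the 8 genes is plotted in CPM (vertical axes, from 0, each with its own scale) for the 3 libraries of each group, with mean and SD. The SPRY2 and SPRY4 libraries of knockdown cells with olaparib sit above all others, SPRY1 is highest in control cells with olaparib (22.4 CPM), and SPRED1 and SPRED2 stay within a narrow band.

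Olaparib raised all 3 Sprouty genes, ETV4 and ETV5 in control cells. With an edgeR adjusted p below 0.05 over all genes tested as the call, 6 of the 8 genes were higher and none lower, where 23.6% of all genes were called higher 23.2% lower and 46.8% in either direction. The median log2 fold change was 0.83 for the 8 genes and -0.00756 for all genes tested. ETV1 is among the 6, but it entered the test through olaparib libraries alone, and its olaparib values are given as a description. Without ETV1, 5 of 7 were higher, with a median of 0.78. SPRED1 and SPRED2 were not called.

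In knockdown cells olaparib raised the 3 Sprouty genes, ETV4 and ETV5 as well. Again 6 of 8 were higher and none lower, against 24.1% of all genes called higher and 48.0% called in either direction. The median was 0.46 for the 8 genes and -0.00883 for all genes. Without ETV1 the count was 5 of 7 and the median 0.37. These 6 libraries share none with the comparison in control cells.

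Knockdown of FOSL1 and JUN raised SPRY2, SPRY4, ETV4 and ETV5 in cells given DMSO. In all, 6 of 8 were higher in knockdown than in control cells and none was lower, where 14.7% of all genes were called higher and 29.9% in either direction. The median was 0.41 for the 8 genes and 0.00366 for all genes. Leaving out ETV1, 5 of 7 were higher and the median was 0.37. SPRY1 and SPRED1 were not called. The number called ran from 4 to 6 over the alternatives, since the call of SPRED2 was lost under 13 of 18 and that of ETV1 under 3 of 18. With olaparib, knockdown cells differed from control cells in 3 of the 8 genes, where 38.3% of all genes were called. SPRY2 and SPRY4 were higher (19.0% of all genes) and SPRY1 was lower (19.3% of all genes). The median was 0.08 for the 8 genes, 0.02 without ETV1 and 0.00824 for all genes. Each group enters more than 1 of these comparisons.

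**Figure D2:**
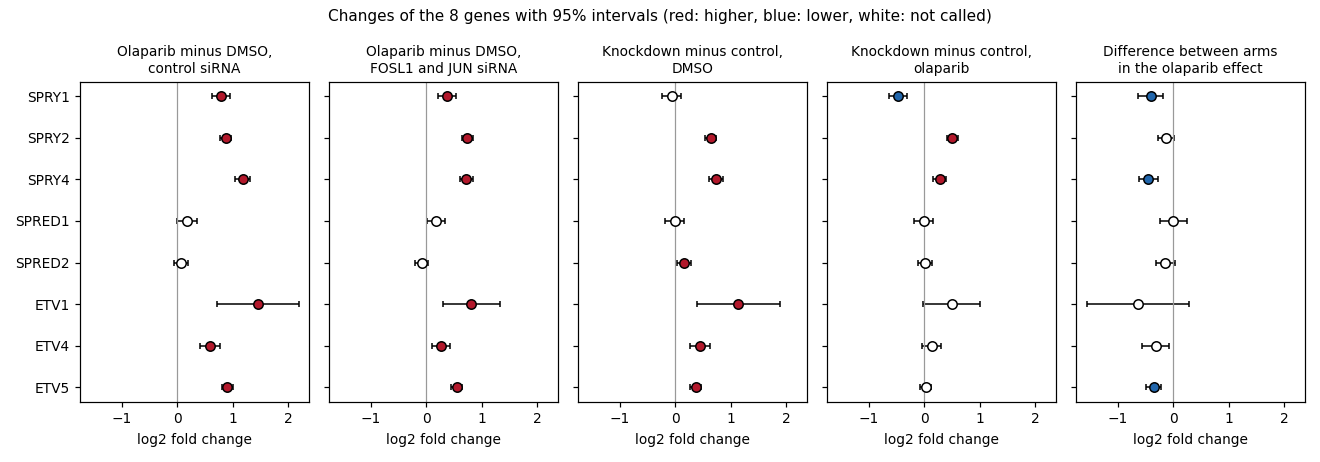
Each panel gives the log2 fold change (horizontal axis) of the 8 genes in 1 comparison, with its 95% interval, red where higher, blue where lower and white where not called. The 4 genes SPRY2, SPRY4, ETV4 and ETV5 lie to the right of 0 in the 2 olaparib panels and in the panel for knockdown in DMSO, while SPRY1 lies left of 0 for knockdown with olaparib (log2 -0.48).

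SPRY2, which binds the adaptor GRB2 and the ubiquitin ligase CBL, responded to both perturbations. It had 177, 177 and 183 CPM in knockdown cells with olaparib, 106, 106 and 110 CPM in DMSO-treated knockdown cells, 125, 127 and 127 CPM in control cells with olaparib, and 65.1, 70.2 and 71.3 CPM in DMSO-treated control cells. The 4 groups did not overlap, and the combination was highest. Olaparib raised SPRY2 1.83-fold in control cells (log2 0.87, SE 0.0496, adjusted p = 7.6e-11) and 1.67-fold in knockdown cells (log2 0.74, SE 0.0477, adjusted p = 6.66e-10). Knockdown raised it 1.56-fold in DMSO (log2 0.64, SE 0.0495, adjusted p = 9.21e-09) and 1.42-fold in olaparib (log2 0.50, SE 0.0475, adjusted p = 8.87e-08). The olaparib effect in knockdown minus control cells was -0.13 on the log2 scale, with a 95% interval of -0.28 to 0.01, and was not called (adjusted p = 0.262).

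SPRY4, an inhibitor of the same cascade, had the largest log2 fold change with olaparib of the Sprouty genes in control cells, and one close to that of SPRY2 in knockdown cells. Its libraries held 84.04, 89.6 and 89.7 CPM in knockdown cells with olaparib, 50.9, 55.4 and 52.9 CPM in DMSO-treated knockdown cells, 71.2, 72.2 and 73.5 CPM in control cells with olaparib, and 30.6, 34.1 and 31.03 CPM in DMSO-treated control cells. No 2 groups overlapped. Olaparib raised SPRY4 2.26-fold in control cells (log2 1.18, SE 0.0613, adjusted p = 2.28e-11) and 1.65-fold in knockdown cells (log2 0.73, SE 0.0575, adjusted p = 9.8e-09). Knockdown raised it 1.66-fold in DMSO (log2 0.73, SE 0.0615, adjusted p = 2.56e-08) and 1.21-fold in olaparib (log2 0.28, SE 0.0569, adjusted p = 0.00067). Whether counting used strand is not stated, and SPRY4-AS1, named as antisense to SPRY4, held at most 11 counts in any library, against at least 440 for SPRY4.

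SPRY1 behaved differently from its relatives. Its libraries read 16.8, 15.9 and 15.6 CPM in knockdown cells with olaparib, 12.1, 12.2 and 12.9 CPM in DMSO-treated knockdown cells, 22.7, 22.5 and 22.1 CPM in control cells with olaparib, and 14.1, 12.5 and 12.6 CPM in DMSO-treated control cells. The 2 DMSO groups overlapped, and control cells with olaparib were above all other libraries. Olaparib raised SPRY1 1.72-fold in control cells (log2 0.78, SE 0.0784, adjusted p = 1.97e-07) and 1.3-fold in knockdown cells (log2 0.37, SE 0.0776, adjusted p = 0.000633). With DMSO the knockdown difference was -0.07 (95% interval -0.24 to 0.11, adjusted p = 0.612). With olaparib SPRY1 fell to 0.719 of the control level in knockdown cells (log2 -0.48, SE 0.0745, adjusted p = 4.96e-05).

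Of the Sprouty and SPRED genes outside the 8, SPRY3 had at most 1 count in any library. SPRED3, a SPRED protein without the KIT-binding function of its relatives, read 5.68, 7.19 and 5.59 CPM in knockdown cells with olaparib, 10.1, 9.59 and 8.28 CPM in DMSO-treated knockdown cells, 9.45, 8.77 and 7.65 CPM in control cells with olaparib, and 6.2, 7.29 and 9.75 CPM in DMSO-treated control cells. Olaparib lowered SPRED3 in knockdown cells (log2 -0.54, SE 0.146, adjusted p = 0.0054), where SPRY1, SPRY2 and SPRY4 rose. In control cells its log2 fold change was 0.14 (adjusted p = 0.487). The difference between the arms was -0.67 and was not called (adjusted p = 0.0686). Knockdown lowered SPRED3 in olaparib (log2 -0.43, SE 0.15, adjusted p = 0.0293), and in DMSO its change was not called (log2 0.24, adjusted p = 0.241).

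SPRED1 and SPRED2 moved little. SPRED1, whose loss causes Legius syndrome, had 18.5, 19.7 and 19.7 CPM in knockdown cells with olaparib, 16.8, 15.9 and 18.6 CPM in DMSO-treated knockdown cells, 18.3, 19.6 and 20.5 CPM in control cells with olaparib, and 17.6, 17.9 and 16.2 CPM in DMSO-treated control cells. The 2 control groups did not overlap, and the 2 knockdown groups did. Olaparib gave a log2 fold change of 0.17 both in control cells (95% interval 0.00106 to 0.35, adjusted p = 0.0918) and in knockdown cells (0.01 to 0.34, adjusted p = 0.0817), and neither was called. Knockdown gave -0.00826 in DMSO (-0.18 to 0.17) and -0.01 in olaparib (-0.18 to 0.16).

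SPRED2, the second of these neurofibromin partners, had AP-1 letters in 1 of its 2 promoter windows. It was the one member with them among the 6 whose windows were searched. It had 46.7, 47.05 and 47.9 CPM in knockdown cells with olaparib, 52.6, 47.7 and 50.05 CPM in DMSO-treated knockdown cells, 48.3, 46.5 and 45.6 CPM in control cells with olaparib, and 46.5, 44.4 and 43.6 CPM in DMSO-treated control cells. The groups lie close together, and the knockdown DMSO libraries are above those of control cells with DMSO. Knockdown in DMSO raised it 1.12-fold (log2 0.16, SE 0.0584, adjusted p = 0.0446), a call lost under 13 of 18 alternatives, with an adjusted p of 0.141 without knockdown DMSO library 1. Its log2 fold change with olaparib was 0.06 in control cells (95% interval -0.06 to 0.19) and -0.08 in knockdown cells (-0.21 to 0.04). These olaparib intervals do not reach changes as large as those of SPRY2 or SPRY4.

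ETV5 was the most abundant of the ETV genes and reached the same range with olaparib in both arms. It had 168, 173 and 179 CPM in knockdown cells with olaparib, 119, 118 and 117 CPM in DMSO-treated knockdown cells, 170, 168 and 174 CPM in control cells with olaparib, and 93.8, 88.0 and 92.1 CPM in DMSO-treated control cells. The 2 olaparib groups overlapped and all other pairs of groups were separate. Olaparib raised ETV5 1.87-fold in control cells (log2 0.90, SE 0.0473, adjusted p = 2.47e-11) and 1.47-fold in knockdown cells (log2 0.55, SE 0.0462, adjusted p = 2.09e-08). Knockdown raised it 1.3-fold in DMSO (log2 0.37, SE 0.0474, adjusted p = 5.5e-06), while in olaparib the difference was 0.02 with a 95% interval of -0.07 to 0.12.

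ETV4, also called PEA3, followed a similar course at a lower level. Its libraries held 21.9, 21.4 and 21.1 CPM in knockdown cells with olaparib, 18.4, 16.8 and 18.3 CPM in DMSO-treated knockdown cells, 19.8, 20.8 and 18.4 CPM in control cells with olaparib, and 14.1, 11.9 and 13.3 CPM in DMSO-treated control cells. Control cells with DMSO were below all other libraries. Olaparib raised ETV4 1.5-fold in control cells (log2 0.59, SE 0.0847, adjusted p = 1.67e-05) and 1.2-fold in knockdown cells (log2 0.27, SE 0.0779, adjusted p = 0.00813). Knockdown raised it 1.37-fold in DMSO (log2 0.45, SE 0.0842, adjusted p = 0.000428). In olaparib the knockdown libraries lay above the control libraries, and the log2 difference of 0.13 was not called (95% interval -0.03 to 0.30, adjusted p = 0.202).

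ETV1 was near the limit of detection. It had 21, 52 and 14 counts in knockdown cells with olaparib, 11, 13 and 20 in knockdown cells with DMSO, 14, 16 and 15 in control cells with olaparib, and 4, 5 and 6 in control cells with DMSO. Scaled to depth these were means of 1.18 ± 0.205, 0.697 ± 0.0665, 0.884 ± 0.197 and 0.309 ± 0.0418 CPM in the same order, so every control DMSO library was below every other library. Because the gene passed the filter on low values through olaparib libraries alone, its fold changes with olaparib are a description, 1.76-fold in knockdown cells (log2 0.81, SE 0.245) and 2.74-fold in control cells (log2 1.45, SE 0.354). With DMSO it was 2.2-fold higher in knockdown than in control cells (log2 1.14, SE 0.358, adjusted p = 0.0216). That call was lost with DESeq2 (adjusted p = 0.0823) and without control DMSO library 1 or 2 (adjusted p = 0.0646 and 0.0675).

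Whether the olaparib effect differed between the arms was tested directly. The olaparib effect in knockdown minus control cells was below 0 in all 8 estimates, from -0.64 for ETV1 to -0.00227 for SPRED1 on the log2 scale. Its median was -0.335, or -0.319 without ETV1 (all genes -0.00394). The difference was called for SPRY4 (-0.45, SE 0.0838, adjusted p = 0.00452), ETV5 (-0.35, SE 0.066, adjusted p = 0.00466) and SPRY1 (-0.41, SE 0.111, adjusted p = 0.0353). That is 3 of 8 genes lower and none higher, where 2.85% of all genes were called lower, 2.84% higher and 5.69% in either direction, 689 genes in all. That total depends on single libraries, and ran from 305 without control olaparib library 1 to 1129 without knockdown olaparib library 1. The SPRY1 call was lost under 12 of 17 alternatives, with adjusted p-values up to 0.0981. Those of SPRY4 and ETV5 were kept under all 17. ETV4 had a difference of -0.32 (95% interval -0.56 to -0.08, adjusted p = 0.107).

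**Figure D3:**
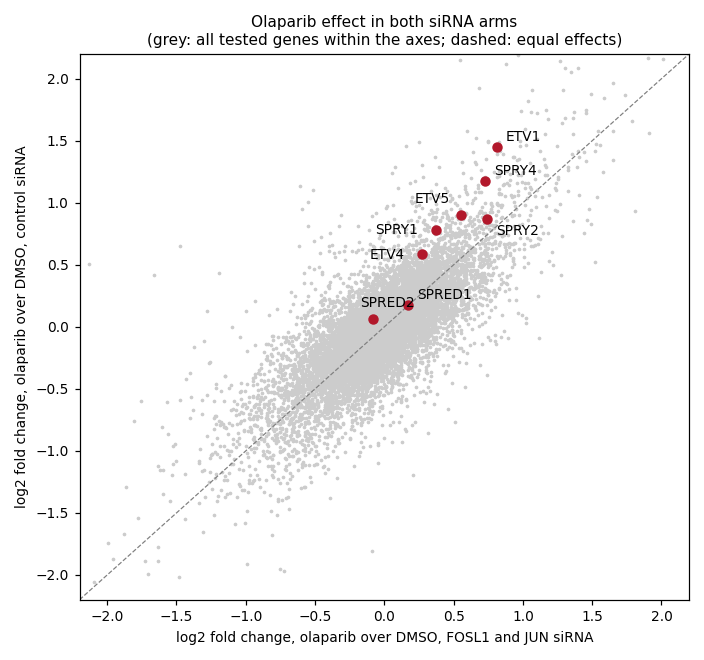
The olaparib log2 fold change in control cells (vertical axis) is plotted against that in knockdown cells (horizontal axis) for all tested genes within the axes (grey) and the 8 genes (red), with a dashed line of equal effects. SPRY4, at 0.73 in knockdown cells and 1.18 in control cells, and 6 other members lie above the line, while SPRED1 lies almost on it.

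Knockdown and olaparib together, set against control cells with DMSO, gave the highest levels of SPRY2 and SPRY4. SPRY2 was 2.6-fold higher (log2 1.38, SE 0.0494, adjusted p = 9.47e-14) and SPRY4 2.75-fold higher (log2 1.46, SE 0.0607, adjusted p = 7.5e-13). ETV5 was 1.9-fold higher, ETV4 1.65-fold higher and SPRY1 1.24-fold higher (log2 0.31, SE 0.0795, adjusted p = 0.00373). ETV1 stood at 3.86 times its control DMSO level, as a description. In all 6 of 8 genes, or 5 of 7 without ETV1, were higher and none lower, against 23.8% of all genes called higher, 23.4% lower and 47.2% in either direction. SPRED1 (log2 0.16) and SPRED2 (log2 0.08) were not called. This comparison shares its control libraries with those of olaparib alone and knockdown alone.

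Growth factor ligands and receptors feed the cascade. Of 28 listed ligands and receptors of the FGF, EGF and PDGF families, with HGF, MET, KIT and AXL, 18 were tested. Of these, 8 rose and 1 fell with olaparib in control cells, and 6 rose and 2 fell with olaparib in knockdown cells. With knockdown, 2 rose and 10 fell in each treatment. Of all genes tested, 23.6% rose and 23.2% fell with olaparib in control cells and 24.1% rose and 23.9% fell in knockdown cells. With knockdown 14.7% rose and 15.2% fell in DMSO and 19.0% rose and 19.3% fell in olaparib. FGF5, a ligand of the Sprouty-regulated FGF receptors, had 5.8 ± 1.03 CPM in knockdown cells with olaparib, 3.87 ± 0.483 in knockdown cells with DMSO, 12.9 ± 0.498 in control cells with olaparib and 7.24 ± 0.413 CPM in DMSO-treated control cells. Knockdown lowered FGF5, with log2 fold changes of -0.93 in DMSO and -1.15 in olaparib (adjusted p = 2.99e-05 and 2.18e-07). FGF1, at 2 to 34 counts a library, exceeded 1 CPM in control cells alone (at most 0.494 CPM in knockdown cells). As a description, its log2 fold changes with knockdown were -1.81 in DMSO and -2.27 in olaparib. AREG, an EGF receptor ligand, had 6 to 51 counts and exceeded 1 CPM with olaparib alone (at most 0.975 CPM with DMSO). FGF18 had 4 to 65 counts and exceeded 1 CPM with DMSO alone (at most 0.679 CPM with olaparib). Their changes with olaparib are likewise a description, log2 1.65 in knockdown and 1.58 in control cells for AREG. For FGF18 they were -2.10 and -2.05. FGF1, AREG and FGF18 entered the test through the groups where they were high, and the counts above include them.

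Of 29 tested components of the RAS-RAF-MEK-ERK cascade, 8 rose and 8 fell with olaparib in control cells, and 7 rose and 7 fell with olaparib in knockdown cells. With knockdown 3 rose and 5 fell in DMSO and 7 rose and 10 fell in olaparib. The shares of all genes, higher and lower in that order of comparisons, were 23.6% and 23.2%, 24.1% and 23.9%, 14.7% and 15.2%, and 19.0% and 19.3%, so that the counts with olaparib and with knockdown in DMSO are near the background. BRAF, a RAF kinase, rose with olaparib by 0.57 in knockdown and by 0.50 in control cells on the log2 scale. RPS6KA2, an ERK-activated ribosomal S6 kinase, fell with knockdown (log2 -0.81 in DMSO and -0.65 in olaparib). PTPN11, the phosphatase SHP2 that acts between receptor and RAS, was the single component with a called difference between the arms (log2 0.28, adjusted p = 0.0154). That is 1 of 29 higher and none lower, where 2.84% of all genes were called higher and 2.85% lower. This count is near the background too.

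Among other brakes on RAS, of 19 tested negative regulators and partners of Sprouty or SPRED proteins, 9 rose and 4 fell with olaparib in control cells and 5 rose and 4 fell in knockdown cells. With knockdown 3 rose and 4 fell in DMSO and 2 rose and 5 fell in olaparib. Among all genes the shares were 23.6% and 23.2%, 24.1% and 23.9%, 14.7% and 15.2%, and 19.0% and 19.3%, higher and lower in that order. ERRFI1, a feedback inhibitor of the EGF receptor, rose with olaparib by 0.75 in knockdown and 0.57 in control cells. CAV1, the caveolin that binds Sprouty proteins, fell with knockdown (log2 -0.45 in DMSO and -0.53 in olaparib). CBLB, a ubiquitin ligase for activated receptors, rose by 0.43 with knockdown in DMSO.

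Of 31 tested other genes known to be induced by ERK, 24 rose and 3 fell with olaparib in control cells, and 19 rose and 5 fell in knockdown cells. With knockdown 4 rose and 13 fell in DMSO, with a list median of -0.13, and 2 rose and 18 fell in olaparib, with a median of -0.355. Against this, 23.6% and 23.2%, 24.1% and 23.9%, 14.7% and 15.2%, and 19.0% and 19.3% of all genes were higher and lower in the same order of comparisons. Olaparib raised DUSP4, a phosphatase that acts on ERK, by 1.28 in knockdown and 1.64 in control cells, and the transcription factor gene MYC by 1.16 and 1.55. EGR3, an early response factor, had group means of at most 1.56 CPM. In knockdown cells it stood at 0.214 of its control level in DMSO and 0.216 in olaparib. It thus entered the test through control cells, where it was high, and the counts above include it. As a description, its log2 fold changes with knockdown were -2.23 in DMSO and -2.21 in olaparib. The difference between the arms was called lower for 10 of the 31 and higher for none, where 2.85% of all genes were called lower and 2.84% higher. It was largest for SPHK1 (log2 -1.21), DUSP1 (log2 -0.999) and DUSP6, the cytoplasmic ERK phosphatase (log2 -0.57, SE 0.102, adjusted p = 0.00376). Some of these genes are described AP-1 targets too, and the earlier results of these data were known when the list was made.

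**Figure D4:**
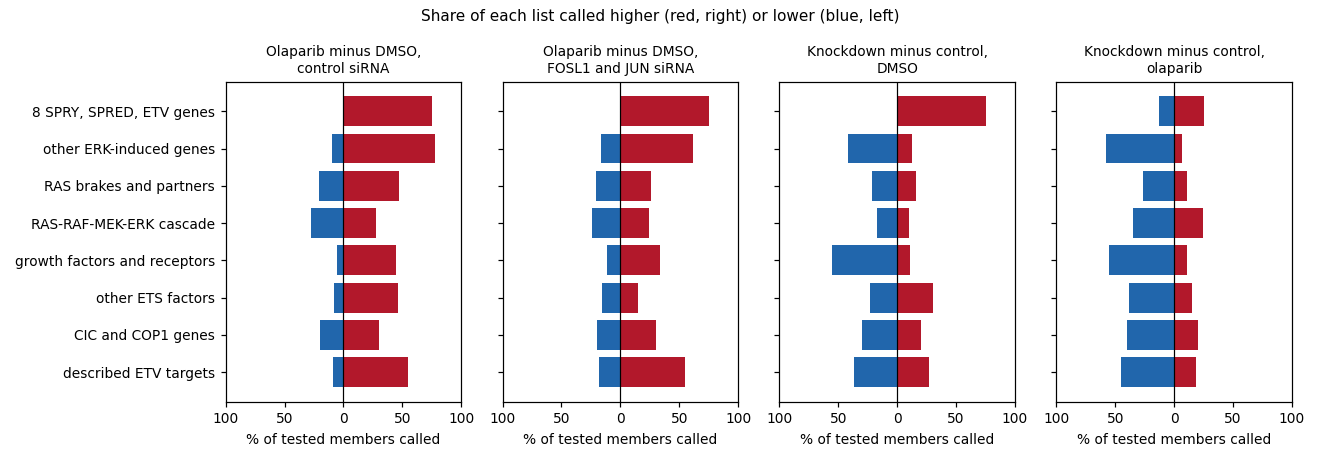
For 4 comparisons, bars give the percentage of each list's tested members called higher (red, to the right) and lower (blue, to the left). In the panel for knockdown in DMSO 6 of the 8 SPRY, SPRED and ETV genes are higher and none lower. Of 31 other ERK-induced genes there, 4 are higher and 13 lower. Among all genes, 14.7% were called higher and 15.2% lower. The 6 include SPRED2 and ETV1, whose calls were lost under 13 and 3 of 18 alternatives.

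Of 13 tested ETS factors outside the PEA3 group, 4 rose and 3 fell with knockdown in DMSO and 2 rose and 5 fell in olaparib. With olaparib 6 rose and 1 fell in control cells and 2 rose and 2 fell in knockdown cells. Over all genes 14.7% rose and 15.2% fell with knockdown in DMSO, 19.0% and 19.3% in olaparib, 23.6% and 23.2% with olaparib in control cells, and 24.1% and 23.9% in knockdown cells. ETS2 rose with olaparib by 0.56 in knockdown and 0.49 in control cells, and fell with knockdown (log2 -0.75 in DMSO and -0.67 in olaparib). ELK1, an ERK-activated partner of SRF, fell likewise (log2 -0.46 and -0.91), as did ELK3 (log2 -0.53 and -0.72).

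The CIC complex represses ETV transcription and the COP1 ligase turns over ETV proteins. Of 10 tested genes for them, 3 rose and 2 fell with olaparib in each arm, 2 rose and 3 fell with knockdown in DMSO, and 2 rose and 4 fell with knockdown in olaparib. The matching shares of all genes were 23.6% and 23.2%, 24.1% and 23.9%, 14.7% and 15.2%, and 19.0% and 19.3%. CIC had 171 ± 27.4 CPM in knockdown cells with olaparib, 184 ± 19.5 in knockdown cells with DMSO, 237 ± 16.1 in control cells with olaparib and 200 ± 11.03 CPM in DMSO-treated control cells. It was lower with knockdown in olaparib (log2 -0.47, SE 0.109, adjusted p = 0.00546) and was not called in DMSO (log2 -0.12, adjusted p = 0.444). TRIB2, a pseudokinase adaptor of COP1, rose with knockdown by 0.61 in DMSO and 1.17 in olaparib.

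Of 11 tested genes described as targets of ETV1, ETV4 or ETV5, out of 20 listed, 6 rose and 1 fell with olaparib in control cells and 6 rose and 2 fell in knockdown cells. With knockdown 3 rose and 4 fell in DMSO and 2 rose and 5 fell in olaparib. All genes tested gave 23.6% and 23.2%, 24.1% and 23.9%, 14.7% and 15.2%, and 19.0% and 19.3%, higher and lower in that order. MMP1, the interstitial collagenase, had 17.4 ± 0.834 CPM in knockdown cells with olaparib, 13.3 ± 1.82 in knockdown cells with DMSO, 39.9 ± 0.211 in control cells with olaparib and 36.5 ± 3.59 CPM in DMSO-treated control cells, and fell with knockdown (log2 -1.48 in DMSO and -1.21 in olaparib). MMP1 is a described AP-1 target as well. ICAM1, an adhesion molecule, rose by 0.43 with knockdown in DMSO and by 0.59 and 0.73 with olaparib in knockdown and control cells.

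In the authors' deposited table of comparisons all 8 genes were listed. At a false discovery rate of 0.05 in the authors' deposited table, 48 of 48 calls, over 8 genes and 6 comparisons, had the same verdict and direction as here. The authors' comparisons are of the same 12 libraries, so this match is no independent check of the results.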

How the data were processed

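The authors deposited raw counts per gene, with symbol and length, for 12 libraries, and a table of comparisons whose log2 fold changes and p-value columns (false discovery rates) were used for 1 check, per the file headers. The submitters' processing notes name bcl2fastq 2.20.0.422. Not given in the sources used here are aligner, counter, build and strand setting. The 51 rows without a symbol (0.00223% to 0.00311% of a library) were left out. Counts were scaled by TMM (factors 0.937 to 1.05) and fitted over all 12 libraries and 4 groups with edgeR 4.0.16 (quasi-likelihood F test, robust, 8 residual degrees of freedom), with Benjamini-Hochberg adjustment over 12118 genes and calls below 0.05. The common dispersion was 0.00372. The SE was derived from the F statistic. The procedure was tested on simulated data. Alternatives were DESeq2 1.42.0, its size factors, no CPM filter, only the groups compared, a replicate block, thinned counts and leaving out each library. The 8 genes and the context lists were chosen with earlier results of these data known. Named genes are the 8, FOSL1 and JUN, of each list (SPRED3 included) at most 3 called genes with the largest absolute change in a comparison, and the 3 most correlated genes of each of the 8. Values of such a gene in other comparisons, and SPRY3 and SPRY4-AS1, were added after their values were seen. Depth limits precision for ETV1 alone among the 8.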

Additional observations from a re-analysis of the deposited data

Results flagged for a closer look

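The olaparib effect differed between knockdown and control cells, by a test of the difference itself, for 3 of the 8 genes, where 5.69% of all genes were called. The difference in log2 fold change, knockdown minus control cells, was -0.45 for SPRY4, -0.35 for ETV5 and -0.41 for SPRY1. SPRY4 had log2 fold changes of 0.73 in knockdown and 1.18 in control cells, ETV5 of 0.55 and 0.90, and SPRY1 of 0.37 and 0.78, with 3 libraries in each group. The SPRY1 call was lost under 12 of 17 alternatives, with adjusted p-values up to 0.0981. ETV5 and SPRY4 were already higher in knockdown than in control cells with DMSO, and SPRY1 was not. With 3 libraries a group, no test for single outlying libraries was made.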

How the results depend on the processing

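Over the 17 or 18 alternatives of each result, the number of the 8 genes called stayed within 1.5 times the reported number in all 6 comparisons. Of 855 recomputed values of single genes, 809 kept direction and call, 31 lost the call, 1 gained it and 14 changed sign, the last all for differences that were not called. Calls were lost for SPRED2 with knockdown in DMSO (13 of 18, adjusted p up to 0.15), for SPRY1 in the difference between the arms (12 of 17) and for ETV1 (3 of 18 with olaparib in knockdown cells and 3 of 18 with knockdown in DMSO). SPRED1 gained a call with olaparib in knockdown cells without knockdown DMSO library 3 (log2 0.25, adjusted p = 0.0264). Leaving out 1 library moved SPRED1 between -0.0819 and 0.0438 for knockdown in DMSO, -0.0523 and 0.0322 for knockdown in olaparib, and -0.0544 and 0.0713 for the difference between the arms, SPRED2 between -0.00639 and 0.0368 and ETV5 between -0.000692 and 0.044 for knockdown in olaparib. Leaving out 1 library moved the 689 genes with a called difference between the arms to between 305 and 1129. It was 1129 without knockdown olaparib library 1, 342 without knockdown olaparib library 2, 423 without knockdown DMSO library 2, 305 and 322 without control olaparib libraries 1 and 2, and 434 and 348 without control DMSO libraries 1 and 2, and the cause was not tested. The titles number the replicates alike in each group, but same-numbered libraries correlated at -0.448 to 0.493 in their deviations from the group means, with 5 of 18 pairs above 0.1, and 2 of 12 libraries correlated best with their own number. With a replicate block SPRED2 had an adjusted p of 0.0545 for knockdown in DMSO, SPRY1 0.0501 for the difference between the arms (log2 -0.41), and SPRED1 a log2 difference of 0.0050. ETV1 had 4 to 52 counts a library, which limits its precision.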

Other observations

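Across the 12 libraries, which fall into 4 groups, each of the 8 genes was set against the 9381 genes whose log2 CPM averaged 3 or more, and the 3 most alike by Pearson's r are given as a description. SPRY4 was most like HOXC11 (r = 0.994), GATA2 (0.984) and INSR (0.982), and SPRY2 most like CHST3 (0.988), GATA2 (0.987) and ADAMTS15 (0.987). ETV4 was most like TNFRSF1A (0.974), GATA2 (0.971) and INSR (0.955), ETV1 most like FRAT2 (0.978), IGHMBP2 (0.972) and GATA2 (0.97), and ETV5 most like SH3RF1 (0.988), GABBR2 (0.986) and SDE2 (0.983). GATA2, a zinc finger transcription factor, was thus among the 3 for SPRY2, SPRY4, ETV1 and ETV4. SPRY1 was most like PER1 (0.987), SRC (0.987) and S1PR1 (0.986). SPRED1 was most like HSD17B12 (0.954), AK3 (0.94) and NT5C3A (0.939), and SPRED2, with the lowest values, most like SUSD5 (0.838), TRIM62 (0.838) and NRBP1 (0.809). Among the 8 genes, SPRY2, SPRY4, ETV1, ETV4 and ETV5 had correlations of 0.894 to 0.979 with each other, while SPRY1 had 0.475 with SPRY2 and 0.764 with ETV5, and SPRED2 had -0.141 with SPRY1.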
